A study of Homo sapiens with 2 samples.

Results

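Histone genes encode the proteins around which nuclear DNA is wound. The genes were chosen by name: those whose gene symbol on the array's annotation begins HIST1 to HIST4, H1F, H2AF or H3F, or carries the current forms of those names. Of the 19775 genes with a probe set assigned to a single symbol, 54 met this rule, 44 of them replication-dependent histone genes and 10 replacement or variant histone genes. The symbol itself matched for 49, and a former symbol in the RefSeq gene table matched for the other 5 (H2AX, H2AJ, MACROH2A1, MACROH2A2 and H3-4). A further 3 pseudogenes and 1 antisense RNA with such names were set apart.

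The cells were RKO, a colon cancer line long in culture, and each group was profiled on 1 array. The sh-Luci group carried a retroviral hairpin against luciferase, and the sh-BCLAF1-L group a retroviral hairpin against the long form of BCLAF1, a nuclear protein linked to transcription and RNA processing. Both were stable lines obtained with puromycin, so infection and drug were shared. Only 1 of the hairpins against BCLAF1 was profiled, and effects of that hairpin and of lower BCLAF1 cannot be told apart. With no replicate in either group, all differences are single values without an error from cultures, and none has a p-value.

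Nucleosomes hold a core of H2A, H2B, H3 and H4, and linker histone H1 binds where the DNA enters and leaves. Replication-dependent histone genes lie in clusters, are transcribed mainly in S phase, and give mRNAs without introns that end in a stem-loop bound by SLBP instead of a poly(A) tail. Replacement histones such as H2A.Z, H3.3 and macroH2A are made through the cell cycle from dispersed genes with polyadenylated mRNAs. Kits of the kind used here prime copying at poly(A) tails, so cluster transcripts without one are read less directly. Dividing tumour cells need both supplies, the first to package new DNA and the second to exchange histones outside replication.

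No histone gene reached a 1.5-fold difference between the hairpins. A gene took the value of its brightest probe set, as log2(intensity + 1) of sh-BCLAF1-L minus sh-Luci, and was called detected when its mean reached an intensity of 63.7, the 40th percentile of all probe sets. Detected were 37 of the 54 genes, and 0 of these 37 passed 1.5-fold, where 0.634% of all 14507 detected genes did (0.434% higher and 0.2% lower). At a difference of 25%, 3 of the 37 passed, H2BC9 and H1-10 lower and H2AC16 higher, against 6.36% of all genes. At 2-fold, 0 of the 37 passed, against 0.0758%. In sign, 18 were higher and 19 lower, where 55.0% of all genes were higher. The median over the 37 was -0.023 (-0.38 to 0.34) and that over all detected genes 0.019. Their SD was 0.18, and that of all detected genes 0.17. In bulk RNA, fewer cells in S phase and less histone mRNA per cell cannot be told apart.

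The replication-dependent genes had a lower median than the replacement genes, and their values overlapped. The 27 detected replication-dependent genes had a median of -0.062, with 11 higher and 16 lower, and ranged from -0.38 to 0.34. The 10 replacement genes, all detected, had a median of 0.039, with 7 higher and 3 lower, and ranged from -0.34 to 0.18. The gap between these medians was 0.10. The values of single genes carry the disagreement of their probe sets. This had a pooled within-gene SD of 0.16, both over 6752 genes of the array and over the 8 histone genes with several detected probe sets. That SD applies to single genes and not to the gap between medians, for which no error was estimated. The range of the replacement genes lay inside that of the replication-dependent genes. Among genes with a mean intensity of at least 250, a split chosen after seeing the data, the medians were -0.023 (7 genes) and 0.023 (6 genes). Taking for each gene the median of its probe sets left 9 replacement genes detected, with a median of -0.016. H2AJ (0.16 on its brightest probe set) was no longer among them.

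**Figure D1:**
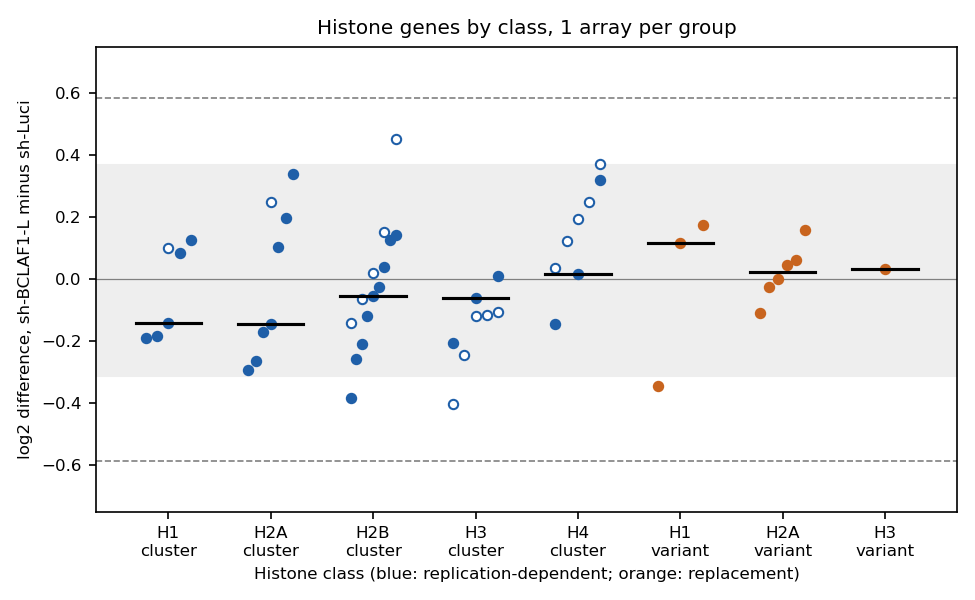
Log2 difference (y axis, sh-BCLAF1-L minus sh-Luci, 1 array each) of each histone gene by class (x axis). Replication-dependent genes are in blue and replacement genes in orange. Filled points are detected genes, open points are genes below detection, black lines are medians of detected genes, the grey band is the central 95% of all detected genes (-0.31 to 0.37) and dashed lines mark 1.5-fold. All 54 genes lie between the dashed lines, and of the detected ones H2BC9 and H1-10 fall below the band.

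By protein class, the medians of the detected genes were -0.028 for 8 linker H1 genes, 0.00094 for 13 H2A genes, -0.053 for 9 H2B genes, -0.026 for 4 H3 genes and 0.018 for 3 H4 genes. With the median difference of all probe sets (0.026) subtracted, those of H2A and H4 were below 0, at -0.025 and -0.0076. Without _s_at, _x_at and _a_at probe sets, 6 H1 genes were left, with a median of 0.10. With detection set at the 60th percentile, another set of 6 was left, with a median of -0.16. In both runs the H1 genes left kept their values, and only the membership changed. The H3 median was 0.0075 over 4 genes when a gene took the median of its probe sets. Without _s_at, _x_at and _a_at probe sets, the H3 median was -0.13 and the H4 median 0.17, over 2 genes each. Each class held genes of both signs. Within H2A, the 7 replication-dependent genes had a median of -0.14 (-0.29 to 0.34) and the 6 replacement genes of 0.023 (-0.11 to 0.16). Within H1, the 5 detected cluster genes had a median of -0.14 (-0.19 to 0.13) and the 3 replacement genes of 0.12 (-0.34 to 0.18). H2B and H4 had no replacement gene among the members.

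Among the linker histones of the cluster, H1-2, a widely expressed subtype, read 833 in sh-Luci and 754 in sh-BCLAF1-L, a log2 difference of -0.14. H1-1 read 137 and 120 (-0.18), and the testis subtype H1-6 read 234 and 205 (-0.19) on its brightest probe set. H1-3 read 197 and 209 (0.086). H1-4 lay next to the detection limit at 66.0 and 72.1 (0.13). The lower readings in sh-BCLAF1-L were thus those of H1-1, H1-2 and H1-6, and the higher ones those of H1-3 and H1-4.

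The H2A cluster genes held the widest range of the classes. H2AC16 read 69.1 and 87.7, a 1.27-fold higher value in sh-BCLAF1-L and the highest difference of the 37 detected histone genes (0.34), with its control value close to the detection limit. H2AC14 read 545 and 626 (0.20), on a probe set whose name marks possible cross-hybridisation. H2AC4 read 95.8 and 103 (0.11). These were the 3 detected H2A cluster genes that were higher.

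The remaining detected H2A cluster genes were lower in sh-BCLAF1-L. H2AC6 read 161 and 132 (-0.29). H2AC25 read 216 and 180 (-0.26), but its second probe set read 90.7 and 94.9 (0.065). H2AC8 read 94.5 and 83.9 (-0.17), and H2AC17 read 80.5 and 72.7 (-0.14). Each encodes a core H2A of the replication-dependent set, and the proteins of these genes are near-identical.

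Among the H2B genes, H2BC9 had the lowest difference of the 37 genes. It read 165 and 126, a 1.30-fold lower value (-0.38), on a single probe set of the cross-hybridising kind. H2BC12L, which lies on chromosome 21 outside the clusters and was counted as replication-dependent by its current symbol, read 189 and 158 (-0.26). H2BC6 read 92.5 and 79.9 (-0.21), and H2BC14 read 114 and 105 (-0.12). The brighter H2B probe sets showed smaller differences. H2BC12 read 709 and 683 (-0.053), H2BC15 read 284 and 280 (-0.023), and H2BC5 read 768 and 790 (0.041), with 0.051 on its second probe set. H2BC21, a cluster gene that also gives polyadenylated transcripts, read 229 and 253 (0.14), and H2BC3 read 102 and 112 (0.13).

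Few H3 and H4 cluster genes were detected. Of the 8 H3 cluster genes, 3 passed: H3C3 read 146 and 127 (-0.21), H3C6 read 136 and 131 (-0.062), and H3C8 read 354 and 357 (0.010). Of the 8 H4 genes, 3 passed as well. H4C11 read 409 and 369 (-0.15), H4C8 read 91.3 and 92.4 (0.018), and H4C9 read 111 and 139 (0.32). H4C9, the second highest of the 37, lay just short of 25%. The proteins encoded by the H4 genes are nearly all the same, so these probe sets do not separate products. H3C8 and H4C11 were read by probe sets of the cross-hybridising kind, whose locus is uncertain.

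The 17 histone genes below detection were all replication-dependent. Their differences ranged from -0.40 to 0.45, with 10 higher and 7 lower. None passed 1.5-fold, against 0.634% of all detected genes. H2BC4 read 44.4 and 61.3 (0.45) and H3C2 read 42.4 and 31.9 (-0.40). H4C13 read 32.3 and 42.1 (0.37). All 5 of these undetected H4 genes (H4C1, H4C4, H4C5, H4C7 and H4C13) were higher, whereas all 5 undetected H3 genes (H3-4, H3C1, H3C2, H3C7 and H3C11) were lower. These values lie near background. Probe sets below detection that list several genes had both signs, with 0.37 and -0.40 for H4 genes. Those listing H3 genes had -0.092, 0.22 and 0.10. The 2 detected pseudogenes H1-9P and H2AC5P differed by -0.21 and 0.066.

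**Figure D2:**
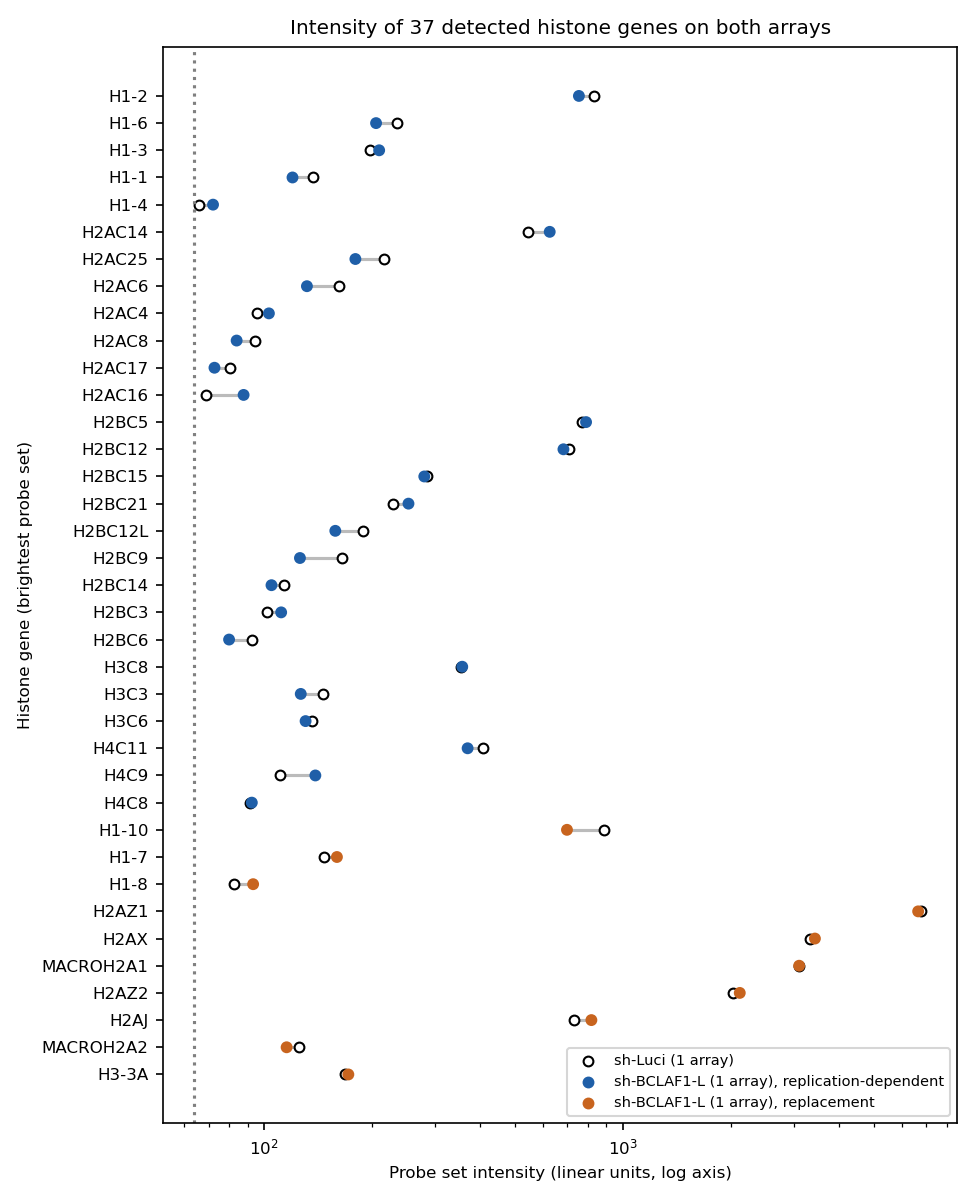
Intensity (x axis, linear units on a log axis) of the brightest probe set of each of the 37 detected histone genes (y axis) in sh-Luci (open points) and sh-BCLAF1-L (filled points, blue for replication-dependent and orange for replacement), with the detection limit of 63.7 as a dotted line. The pairs lie close together at all brightnesses, and the widest separations are those of H2BC9, H1-10, H2AC16 and H4C9. Intensities of different probe sets do not compare levels between genes.

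Of the 10 replacement histones, 6 were read by several detected probe sets. H2AZ1, an H2A.Z gene whose product marks promoters, read 6777 and 6658 (-0.026), and the other one of its probe sets was lower as well (-0.074). H2AZ2, which encodes the other H2A.Z protein, read 2031 and 2119 (0.061), and all 4 of its probe sets were higher, by 0.061 to 0.16. H2AX, the variant that is phosphorylated around DNA breaks, read 3327 and 3432 (0.045). On the dimmer detected probe sets of H2AX the values were 0.24 and -0.15. H2AJ read 731 and 817 (0.16), with 0.22 on its second detected probe set.

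MacroH2A proteins carry a large extra domain and are enriched in silent chromatin. MACROH2A1 read 3099 and 3101 (0.00094) on its brightest probe set, and its 5 detected probe sets spread from -0.31 to 0.34 around that value. MACROH2A2 read 125 and 116 (-0.11). H3-3A, 1 of the 2 genes for H3.3, read 168 and 172 (0.033) on the only probe set assigned to it alone.

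Of the replacement linker histones, H1-10 stood lowest. It read 887 and 699, a 1.27-fold lower value (-0.34) on its single probe set, outside the central 95% of all detected genes (-0.31 to 0.37). It was the lowest of the 13 histone genes with a mean intensity of at least 250, whose differences otherwise reached from -0.15 to 0.20. H1-7, a spermatid subtype, read 147 and 160 (0.12), and H1-8, the oocyte subtype, read 82.4 and 93.2 (0.18). The brightest of these readings, that of H1-10, was lower and both dim ones were higher.

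Probe sets assigned to several genes were kept out of the values above. They were needed for H3.3, because 8 detected probe sets list H3-3A and H3-3B together with a pseudogene or a microRNA gene. Of these 8, 6 were lower, with a median of -0.032 and a range of -0.097 to 0.18. The brightest read 6899 and 6632 (-0.057), and the dimmest, at 425 and 480, differed by 0.18. Single loci cannot be told apart for H4, where 4 detected probe sets each list the same 14 genes. The brightest of these read 6601 and 6918 (0.068), and the others differed by -0.20, -0.032 and 0.096.

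Detected shared probe sets of the H2A and H2B clusters ranged from -0.33 to 0.41. Both ends lay outside the central 95% of all detected genes (-0.31 to 0.37). A probe set for H2AC18 and H2AC19 read 1268 and 1297 (0.033). Another listing 6 H2A genes read 71.9 and 96.0 (0.41), while the brighter probe set for the same 6 genes read 289 and 292 (0.012). Both detected probe sets that list 5 H2B genes were lower, at 161 and 147 (-0.13) and at 151 and 120 (-0.33). Over all 21 detected probe sets of several genes, 0 passed 1.5-fold, against 0.634% of all detected genes.

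**Figure D3:**
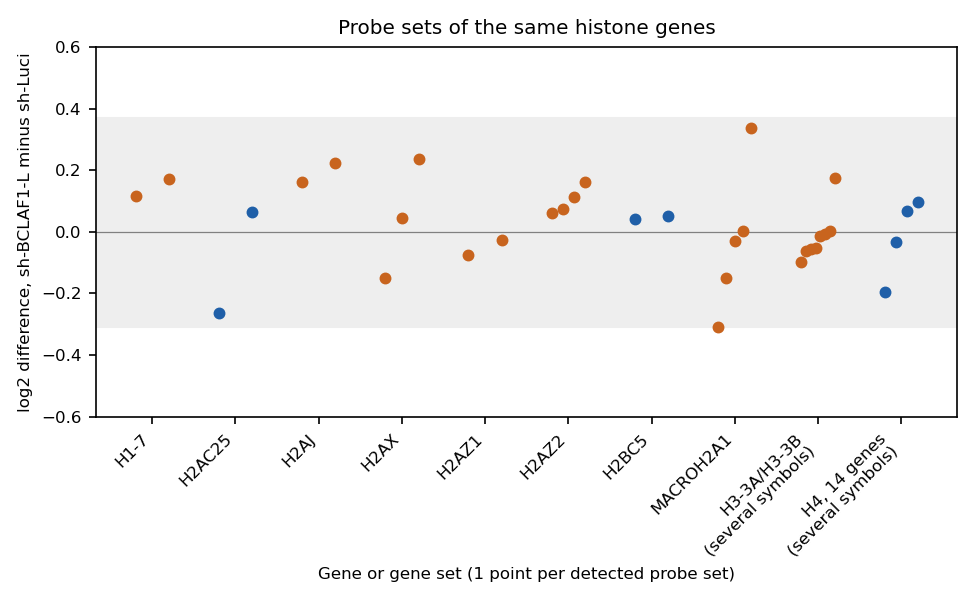
Log2 difference (y axis, sh-BCLAF1-L minus sh-Luci) of every detected probe set of the 8 histone genes with several, and of the shared probe sets for H3-3A and H3-3B and for 14 H4 genes (x axis), in blue for replication-dependent and orange for replacement. The grey band is the central 95% of all detected genes (-0.31 to 0.37). The 5 probe sets of MACROH2A1 span -0.31 to 0.34, and those of H2AZ2 span 0.061 to 0.16.

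The probe sets of 5 of these 8 genes all had the same sign (H1-7, H2AJ, H2AZ1, H2AZ2 and H2BC5), and those of H2AC25, H2AX and MACROH2A1 did not. For the other 29 detected genes, a single probe set was detected, and no such comparison was possible. Names ending in _s_at or _x_at mark probes that can match more than 1 transcript or gene. They were carried by the brightest probe sets of 9 of the 27 detected replication-dependent genes. The locus read by those 9 is uncertain.

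Differences were wider among dim probe sets, in histone genes and in all genes. The 24 detected histone genes with a mean intensity under 250 had an SD of 0.20, and all 6925 detected genes of that range had 0.19, with a central 95% of -0.34 to 0.41. The 13 brighter histone genes had an SD of 0.14, and the 7582 brighter genes of the array 0.16, with a central 95% of -0.28 to 0.32. Of the 27 detected replication-dependent genes, 20 were in the dim range, against 4 of 10 replacement genes. The part of dimness in the gap between both sets was not tested.

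**Figure D4:**
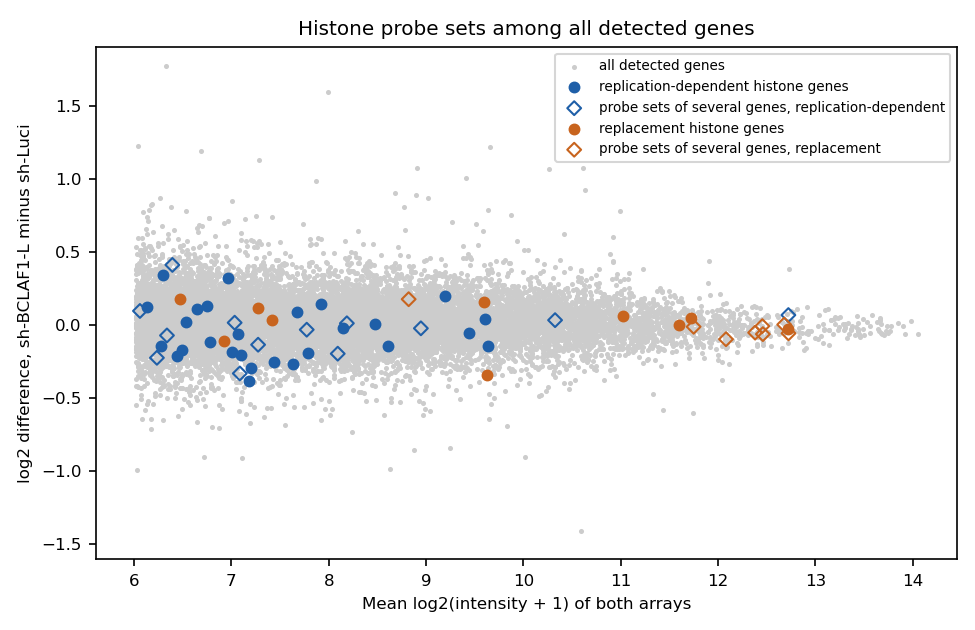
Log2 difference (y axis, sh-BCLAF1-L minus sh-Luci) against mean log2(intensity + 1) of both arrays (x axis) for all 14507 detected genes in grey, histone genes as filled points and histone probe sets of several genes as open diamonds. Histone points fall inside the grey cloud, which narrows to the right, and the brightest ones lie near 0.

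Each block of the chromosome 6 cluster held detected genes of both signs. On chromosome 6, the first block of the cluster held 16 detected genes, 7 higher and 9 lower, with a median of -0.10. In the last block, 2 of 6 detected genes were higher and 4 lower, with a median of -0.070. Between them lie H2BC12 and H4C9, which differed by -0.053 and 0.32. On chromosome 1, H2BC21 differed by 0.14 and H2AC25 by -0.26. Their start sites, at 149886682 and 228457873, lie far apart and are not 1 stretch.

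Many H2A and H2B genes are arranged head to head, so that both start from the same short stretch. The RefSeq promoter table of GRCh38.p14 held 51 of the 54 genes. H2AC14 and H2BC14 were the only such pair with both genes detected on probe sets of their own. Their start sites are 245 bases apart, and they differed by 0.20 and -0.12. For the other pairs with values on both sides, at least 1 gene was below detection. In these, H2BC4 and H2AC6 differed by 0.45 and -0.29, H2AC15 and H2BC15 by 0.25 and -0.023, and H2AC17 and H2BC17 by -0.14 and 0.019. On the brightest probe sets, the signs were opposite in all 4 pairs. The second probe set of H2AC15, also below detection, differed by -0.17, the same sign as H2BC15.

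The bases before the start are shown for the detected histone genes at both ends of the range and for the shared H2AC14 and H2BC14 promoter, to set their elements side by side. Capitals mark CCAAT (the CCAAT box), TATAAA (the TATA box) and ATTTGCAT (the octamer known from H2B promoters), each searched on both strands. H2BC9 (chr6:26251364-26251613, + strand) had the lowest difference of the 37 detected genes, H2AC16 (chr6:27865067-27865316, + strand) the highest, and H1-10 (chr3:129316287-129316536, - strand) the lowest of the replacement genes. The fourth stretch (chr6:27814778-27815021, + strand) lies between the starts of H2AC14 on its left and H2BC14 on its right.
H2BC9: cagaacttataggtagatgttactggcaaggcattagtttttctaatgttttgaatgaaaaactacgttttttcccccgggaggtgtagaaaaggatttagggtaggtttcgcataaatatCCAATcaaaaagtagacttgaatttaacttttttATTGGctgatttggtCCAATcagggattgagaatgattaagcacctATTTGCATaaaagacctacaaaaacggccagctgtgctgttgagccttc
H2AC16: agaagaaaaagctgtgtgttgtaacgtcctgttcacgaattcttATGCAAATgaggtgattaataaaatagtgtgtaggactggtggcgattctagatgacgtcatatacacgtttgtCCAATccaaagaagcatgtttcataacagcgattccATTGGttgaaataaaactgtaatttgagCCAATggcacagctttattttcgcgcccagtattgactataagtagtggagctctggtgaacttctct
H1-10: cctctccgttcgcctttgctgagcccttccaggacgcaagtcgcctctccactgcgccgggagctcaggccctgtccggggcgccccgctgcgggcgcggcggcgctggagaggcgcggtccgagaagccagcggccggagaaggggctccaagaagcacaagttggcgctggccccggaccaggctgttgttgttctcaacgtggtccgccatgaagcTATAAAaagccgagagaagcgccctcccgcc
H2AC14/H2BC14: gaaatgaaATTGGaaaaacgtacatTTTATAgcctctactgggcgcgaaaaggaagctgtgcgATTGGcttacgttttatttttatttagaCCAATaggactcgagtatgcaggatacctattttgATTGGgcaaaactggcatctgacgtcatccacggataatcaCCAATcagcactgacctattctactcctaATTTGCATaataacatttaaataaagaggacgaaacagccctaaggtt

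H2BC9 and H2AC16, at opposite ends of the detected range, each held 3 matches to CCAAT and 1 to ATTTGCAT. The shared stretch of H2AC14 and H2BC14 held 5 and 1, with 1 match to TATAAA. H1-10 held 1 match to TATAAA and none to the other motifs. In windows of 250 bases before the start, CCAAT was found for 36 of 41 replication-dependent and 8 of 10 replacement genes. Of all 35116 windows, 11240 held it. For each motif, a gene counted when any of its windows matched, whereas all windows were counted singly, so these shares differ in unit. Of the H4 cluster genes, 2 of 7 held CCAAT. Each H1, H2A, H2B and H3 cluster gene with a promoter window held it in at least 1 window. TATAAA was found in 28 of 41 and 3 of 10, against 10.7%. ATTTGCAT was found in 10 of 13 H2B and 6 of 8 H2A cluster genes. The H1, H3 and H4 cluster genes had it in 0 of 6, 0 of 7 and 0 of 7. It was found in 0 of the 10 replacement genes and in 1.63% of all windows. Windows of head-to-head pairs overlap and share their matches. A match describes the letters and is not a bound site.

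Genes that supply histones were described as well, from lists chosen for this purpose. Of the 24 detected genes for histone mRNA synthesis and processing, 14 were higher and 10 lower, with a median of 0.016. This median was -0.0098 with the median difference of all probe sets subtracted. Past 1.5-fold were 0 of the 24, against 0.634% of all detected genes. NPAT, the cyclin E-CDK2 target that switches on the clusters, read 695 and 641 (-0.12), with 0.16 on its second probe set. SLBP, the stem-loop binding protein, read 2326 and 2538 (0.13). At the ends of the list, MIF4GD, a partner of SLBP in translation, read 433 and 586 (0.44), with 0.066 on its second probe set. TUT7, which adds uridines to histone mRNA during decay, read 728 and 905 (0.31), and all 5 of its detected probe sets were higher. ZNF473, a subunit of the processing particle, read 224 and 192 (-0.22), with -0.059 on its second probe set. The cap-binding NCBP1 read 688 and 629 (-0.13), with -0.39 on its second.

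Histone chaperones and deposition factors had a median of -0.021 over 34 detected genes, 13 higher and 21 lower. Of the 34, 0 passed 1.5-fold, against 0.634% of all detected genes. IPO4, the importin that carries H3 and H4 into the nucleus, read 372 and 270, a 1.38-fold lower value (-0.46) on 1 probe set. SUPT6H, a histone chaperone of transcribed genes, read 277 and 215 (-0.36), and its 3 detected probe sets were all lower. UBN1, of the H3.3-depositing HIRA complex, read 676 and 796 (0.24), and CHAF1B, of the replication-coupled CAF-1 complex, read 322 and 371 (0.20). CENPA, the centromeric H3 variant whose symbol falls outside the naming rule, read 313 and 310 (-0.012).

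The S phase genes had the smallest SD of the 3 lists, at 0.10. Of 23 detected genes, 9 were higher and 14 lower, with a median of -0.036 and a range of -0.14 to 0.23, and 0 passed 25%, against 6.36% of all genes. E2F2, an activator of S phase genes, read 274 and 323 (0.23), and cyclin E1 (CCNE1) read 1034 and 1176 (0.19). The replication clamp PCNA read 3518 and 3185 (-0.14), and the helicase subunit MCM7 read 2393 and 2170 (-0.14). SLBP stands in this list and in the processing list.

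**Figure D5:**
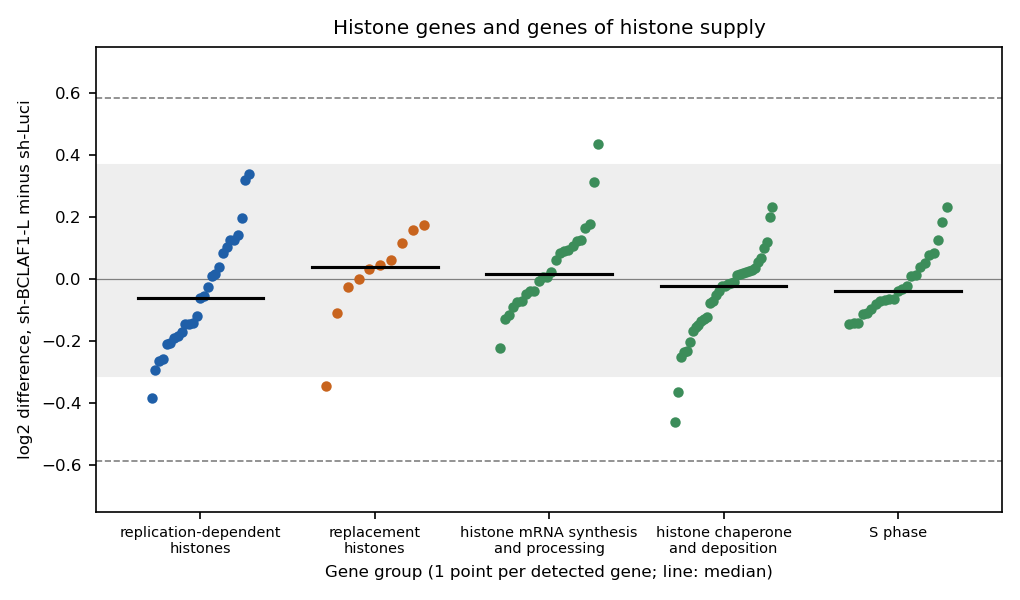
Log2 difference (y axis, sh-BCLAF1-L minus sh-Luci) of each detected gene (1 point per gene, black line for the median) for replication-dependent and replacement histones and 3 lists of histone supply genes (x axis), with the central 95% of all detected genes in grey and 1.5-fold as dashed lines. All groups lie between the dashed lines, and their medians run from -0.062 to 0.039.

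The targeted gene was lower on the array labelled sh-BCLAF1-L, where BCLAF1 read 945 against 2505 in sh-Luci, 2.65-fold lower, with all 6 probe sets lower. Median intensities of the arrays were 82.7 and 84.5. All 18 probe sets of the biotin spike-ins were higher on the sh-BCLAF1-L array, with a median of 0.20, which is larger than the median of any histone class. The ratio of 3' to 5' probe sets was 3.41 and 3.81 for ACTB and 1.38 and 1.49 for GAPDH. The part of these array differences in the histone values was not tested. Of 10 colonic epithelial markers, 6 were detected, among them EPCAM and KRT18, while CDH1, KRT19, KRT20 and LGR5 were below detection. Of markers of other cells with a probe set, 1 of 3 for blood cells, 4 of 5 for fibroblasts and 2 of 4 for endothelium were detected. These were CD3E (135 in sh-Luci), COL1A1 (355), COL1A2 (67.0), DCN (96.2), LUM (63.4), PECAM1 (119) and VWF (177). PTPRC, CD14, COL3A1, CDH5 and KDR were below detection. Detected thus means brightness at or above the limit, and does not by itself show expression.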

How the data were processed

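RNA of 2 RKO lines was hybridised, 1 array per group, after labelling with a 3' in vitro transcription kit, per the labels' protocols. The authors deposited linear probe set intensities; RMA is named in the submitters' processing notes, and program, version and final scaling are not given in the labels or files. The planned design assumed log2 values or, if linear, log2(value + 1), which was used. Of 54675 probe sets, the platform annotation gave 1 symbol for 41097, several for 1801 and none for 11777. Symbols were updated to RefSeq (GRCh38.p14) through gene identifiers.

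Each gene took its brightest probe set. Detected means a mean at or above the 40th percentile. Calls were made at 1.5-fold, with no test, since each group had 1 array, and this number limits the precision. The calculation was tested on simulated data with known changes. Histone type followed the former symbol (HIST, or H1F, H2AF and H3F) and, for a gene without one, the current symbol. Every histone gene could be named. Of the supply lists, fixed genes and the ends of each range are given. Members and lists were chosen with earlier results of these data known. Promoter windows came from RefSeq. Python 3.11.15, pandas 2.3.3 and statsmodels 0.14.6 were used. Alternatives were the probe set rule, the filter, the pseudocount, centring, the fold threshold and the gene set.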

Additional observations from a re-analysis of the deposited data

How the results depend on the processing

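No paired analysis was possible because neither hairpin was profiled more than once, which also leaves no replicate to omit. No histone gene passed 1.5-fold under any alternative run, nor 2-fold, while 3 of 37 passed 25%. Over all detected genes, the shares were 0.634%, 0.0758% and 6.36%. At the shares for 1.5-fold and 2-fold, a count of 0 is likely for any 37 genes, so its repetition says little about stability. A median was counted as moved when it shifted by at least the within-gene SD divided by the square root of its number of genes. With the median over probe sets, the replacement median was -0.016 over 9 genes, in place of 0.039 over 10. H2AJ (0.16 in the main run) fell below detection there. Without _s_at, _x_at and _a_at probe sets, the medians were 0.10 for H1 (6 genes), -0.11 for H2A (9), -0.13 for H3 (2) and 0.17 for H4 (2). That of the histone mRNA synthesis and processing list was 0.072 (18 genes). Without a filter the medians were 0.086 for H1 (9 genes), -0.12 for H3 (9) and 0.16 for H4 (8). With a filter at the 60th percentile they were -0.10 for the replication-dependent genes (18 genes) and -0.16 for H1 (6). In genes with a mean intensity of at least 250, added after seeing the data, the replication-dependent median was -0.023. The cause was not tested. The class medians of H1, H2A, H3 and H4 thus depend in sign on the processing, which in several runs changed the genes they cover. The replication-dependent and H2B medians stayed below 0 under each alternative run, the first between -0.10 and -0.023 and the second between -0.078 and -0.038. The replacement median was also below 0 without _s_at, _x_at and _a_at probe sets (-0.0067, 6 genes). It was 0.017 without H1-7 and H1-8, a run also added after seeing the data. Of 233 values of single histone genes under alternatives, 1 moved by at least the within-gene SD, H2AC25 with the median over probe sets (-0.099 in place of -0.26). This count says little about stability, because the settings largely fixed it. The filter runs leave the value of a gene as it is. Subtracting the median difference shifts all genes by 0.026. For 29 of the 37 genes, only 1 probe set was detected. Dim probe sets near background limit the readings of most cluster genes.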
